A study of Arabidopsis thaliana with 30 samples.

Results

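Antimycin A (AA) responses were compared between the sextuple line and wild type Col-0 (Col) of Arabidopsis thaliana, gene by gene, as the difference (sextuple AA minus CK) minus (Col AA minus CK). AA blocks complex III of the mitochondrial electron transport chain, and CK seedlings received the solvent, DMSO. The comparison used 12 of the 30 libraries of the series, chosen by genotype and treatment label alone, and 22718 genes were tested. Each library came from whole seedlings, 10 days old, given 50 µM AA or solvent for 5 h according to GEO's labels, while a shorter time stands in the study's methods. The 4 groups of 3 libraries were sextuple AA, sextuple CK, Col AA and Col CK. GEO's titles read Sextuple1 for the sextuple CK libraries and Sextuple for the sextuple AA libraries. Whether both names stand for the same line is not stated in the sources used here, and each difference takes them as the same. The sextuple line carries the alleles mcu1-1 to mcu6-1 in genes of the mitochondrial calcium uniporter, which lets calcium into the matrix. It was built by crossing insertion mutants and editing, its insertions lie in exons for some genes and in promoters for others, and it is a knockdown with residual transcripts. Seedlings had been shaken overnight in the dark in liquid medium, which all 4 groups share.

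Mitochondria report their state to the nucleus through retrograde signalling. When complex III is blocked, membrane-bound NAC factors are known to be released and to induce a set of genes called the mitochondrial dysfunction stimulon, of which the alternative oxidase gene AOX1A is the usual marker. Low oxygen is read by another route, in which cysteine oxidases mark group VII ethylene response factors for breakdown while oxygen is present. Under hypoxia these factors persist and induce a core set of genes for fermentation, sucrose breakdown and oxygen sensing.

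The hypoxia genes held the largest shift of any gene list in the difference of responses. Upstream windows of 3 called members are shown as examples of those that hold the motif described next, which 4 of the 10 called members hold. They are the 250 bases before the annotated start in TAIR10.1, read from RefSeq's TAIR10.1 genome and printed in the direction of transcription. ADH1 (alcohol dehydrogenase) lies on the plus strand, at chr1:28975005-28975254. AT4G33070 (pyruvate decarboxylase PDC1) lies on the minus strand, at chr4:15954804-15955053. NIP2;1 (a lactic acid channel) lies on the minus strand, at chr2:14515989-14516238. Capitals mark AAACCA, the GT motif of the anaerobic response element, on either strand, so that the other strand reads TGGTTT.
ADH1: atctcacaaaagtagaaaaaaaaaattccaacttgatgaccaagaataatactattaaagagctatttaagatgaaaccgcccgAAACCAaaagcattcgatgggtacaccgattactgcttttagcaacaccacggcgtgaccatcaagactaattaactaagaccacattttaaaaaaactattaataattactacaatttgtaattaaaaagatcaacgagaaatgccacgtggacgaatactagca
AT4G33070: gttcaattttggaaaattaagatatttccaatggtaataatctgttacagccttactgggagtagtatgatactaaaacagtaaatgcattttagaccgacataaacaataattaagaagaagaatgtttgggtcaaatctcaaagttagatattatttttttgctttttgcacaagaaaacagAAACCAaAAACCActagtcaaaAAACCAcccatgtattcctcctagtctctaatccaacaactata
NIP2;1: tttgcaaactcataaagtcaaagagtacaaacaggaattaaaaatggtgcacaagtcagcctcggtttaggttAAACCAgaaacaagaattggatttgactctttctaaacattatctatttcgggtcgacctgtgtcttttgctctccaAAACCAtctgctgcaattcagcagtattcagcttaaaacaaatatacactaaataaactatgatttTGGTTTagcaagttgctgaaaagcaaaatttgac
The motif was present in 7 of the 18 hypoxia promoters (38.9%) and in 27.4% of all 21649 promoters of tested nuclear protein-coding genes. Called members whose windows did not hold it include SUS4, LBD41, AT3G10040 and ACO1. Another motif of that element, GCCCC, was present in 2 of 18 hypoxia promoters, AT5G15120 (PCO1) and AT5G39890 (PCO2), against 4.61% of all. Neither motif overlaps the other, and none of the 18 hypoxia windows held both. A match is only a run of letters, and these windows were not assayed.

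Depth and headings bear on every value below. Libraries held 25.4 to 37.9 M reads (M, 1e6 reads) in sextuple AA, sextuple CK and Col AA, and 11.8 to 21.5 M in Col CK. Nuclear rRNA genes took 1.54 to 6.64% of reads in Col CK and 0.037 to 0.292% in the other 9 libraries, and shares of plastid and mitochondrial genes were likewise highest in Col CK. Col CK thus stood apart from the other 3 groups. Sextuple CK, at 0.270 to 0.292% nuclear rRNA, also lay above sextuple AA (0.037 to 0.113%) and Col AA (0.054 to 0.069%). Its plastid and mitochondrial shares were above those of both AA groups too, without overlap. The part of Col CK in each difference was not tested, and depth, rRNA share and group cannot be told apart for Col CK. These shares and treatment cannot be told apart in sextuple either. Treatment headings conflict between the deposited tables: the reads of the 6 AA columns used here are identical to those of CK columns in the table that compares the sextuple line with Col without AA (100% of 23085 and 23033 shared genes). Directions below follow the headings of the AA tables. The other headings would reverse the sign of each AA response and of each difference of responses, so that their higher and lower counts would trade places. The contrasts between genotypes would keep their signs and change arm.

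The treatment and genotype labels were checked on their own genes first. AOX1A was at 8156, 6024 and 11012 normalized reads in the libraries labelled sextuple AA and at 21860, 25425 and 27367 in sextuple CK. In Col it was at 11661, 8466 and 7774 under AA and 18965, 18492 and 16772 under CK. AOX1A, which antimycin is known to induce, was therefore lower under the AA label in both genotypes, by log2 values of -1.60 (SE 0.22, limma adjusted p = 7.77e-05) and -0.98 (limma adjusted p = 0.00513). The difference of its responses was -0.62 (SE 0.31, limma adjusted p = 0.355). AOX1D, another alternative oxidase, had responses of -2.74 in sextuple and -1.97 in Col with a difference of -0.77 (limma adjusted p = 0.475). The libraries go against the AA heading in this respect, and "AA" below means the libraries labelled AA.

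Of the uniporter genes, MCU6 (AT5G66650) was at 62.4, 98.9 and 62.4 normalized reads in sextuple AA, 406, 427 and 538 in sextuple CK, 275, 262 and 169 in Col AA, and 909, 764 and 882 in Col CK. It was lower in sextuple than in Col under AA (-1.65, limma adjusted p = 0.0119) and under CK (-0.90, limma adjusted p = 0.032), without overlap of the libraries. It also fell under AA in both genotypes, with log2 responses of -2.62 in sextuple and -1.88 in Col. MCU1 (AT1G09575) was at 104, 98.2 and 47.4 in sextuple AA, 85.7, 74.9 and 176 in sextuple CK, 208, 216 and 181 in Col AA, and 206, 228 and 221 in Col CK. Its libraries did not overlap between genotypes in either arm, but neither difference passed the test (limma adjusted p = 0.224 under AA and 0.0727 under CK). MCU4 (AT4G36820) was at 0 in all 3 libraries of sextuple AA, at 0, 8.65 and 8.81 in sextuple CK, at 3.82, 2.83 and 0.705 in Col AA, and at 37.5, 21.5 and 34.8 in Col CK. MCU4 fell in Col under AA (-3.31, limma adjusted p = 0.00998). MCU2 (AT1G57610) was at 448 to 572 in sextuple AA, 481 to 625 in sextuple CK, 405 to 543 in Col AA and 373 to 562 in Col CK. MCU3 (AT2G23790) was at 1271 to 1511 in sextuple AA, 986 to 1122 in sextuple CK, 1038 to 1282 in Col AA and 1156 to 1459 in Col CK. Sextuple minus Col was 0.11 under AA and 0.37 under CK for MCU2, and 0.28 and -0.25 for MCU3, none called. A lower level in sextuple was thus not seen for MCU2, whereas the paper reports reduced expression of every MCU gene by RT-qPCR, to varying degrees. No MCU gene was called in the difference of responses, and the remaining MCU gene was not analysed here.

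Both genotypes responded broadly. In sextuple, 3174 genes were higher and 3245 lower under AA (limma, adjusted p under 0.05 and fold change over 1.5), which is 28.3% of the genes tested. In Col, 2434 were higher and 1707 lower, 18.2% of the genes tested. Both lists held 1582 higher genes (49.8% of the sextuple calls and 65.0% of the Col calls) and 1405 lower genes (43.3% and 82.3%). Across 17626 nuclear genes with a mean of at least 50 normalized reads, the responses had r = 0.805 and a slope of sextuple on Col of 0.959, a description in which genes are not independent replicates. Scaling by library totals moved the median of all genes to 0.31 in sextuple and 0.26 in Col, from near 0, and the split to 5578 higher and 2163 lower in sextuple and 3974 and 1132 in Col. That scaling moved the median difference of responses by under 0.1, to -0.0035, against -0.05 with median-of-ratios factors.

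**Figure D1:**
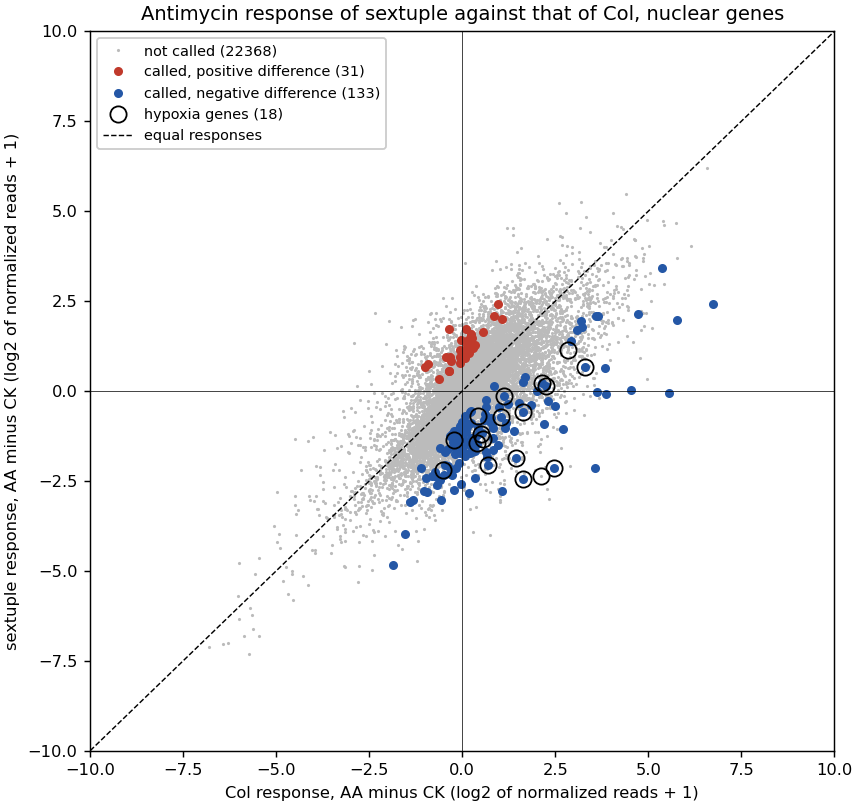
Response to AA (libraries labelled AA minus CK, log2 of normalized reads + 1) of nuclear genes in sextuple, on the vertical axis, against Col, on the horizontal axis, with genes called in the difference of responses marked. Most genes lie along a common diagonal, with r = 0.805 over the 17626 genes with a mean of at least 50 normalized reads. The called genes lie off it, 133 below and 31 above.

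The difference of responses was called for 184 genes, 0.81% of those tested (limma, adjusted p under 0.05). Of these, 51 were positive (0.224%) and 133 negative (0.585%). At an unadjusted p under 0.05 there were 3519 genes (15.5%), and the smallest adjusted p was 0.0316, so each call lay close to the threshold. Organelle and rRNA genes made up 20 of the positive calls, with 14 of 106 plastid, 3 of 75 mitochondrial and 3 of 5 nuclear rRNA genes. The 164 nuclear calls comprised 133 negative genes, with differences from -5.72 to -0.71 (median -1.70), and 31 positive genes, with differences from 0.86 to 2.07 (median 1.14). The call count rested on single libraries. It was 0 without sextuple AA replicate 2, sextuple CK replicate 2, Col AA replicate 1 or Col CK replicate 1. It was 17 without sextuple AA replicate 1, 10 without Col AA replicate 2, 85 without Col CK replicate 2 and 119 without Col CK replicate 3. It was larger, at 345, 805 and 554, without sextuple CK replicate 1, sextuple CK replicate 3 and Col AA replicate 3. Only without sextuple AA replicate 3, at 239, was it within 1.5 times. A fit without both Col CK libraries of highest rRNA share, replicates 1 and 3, was added after the data were seen. It left 1 Col CK library, so its calls cannot be set against these counts.

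**Figure D2:**
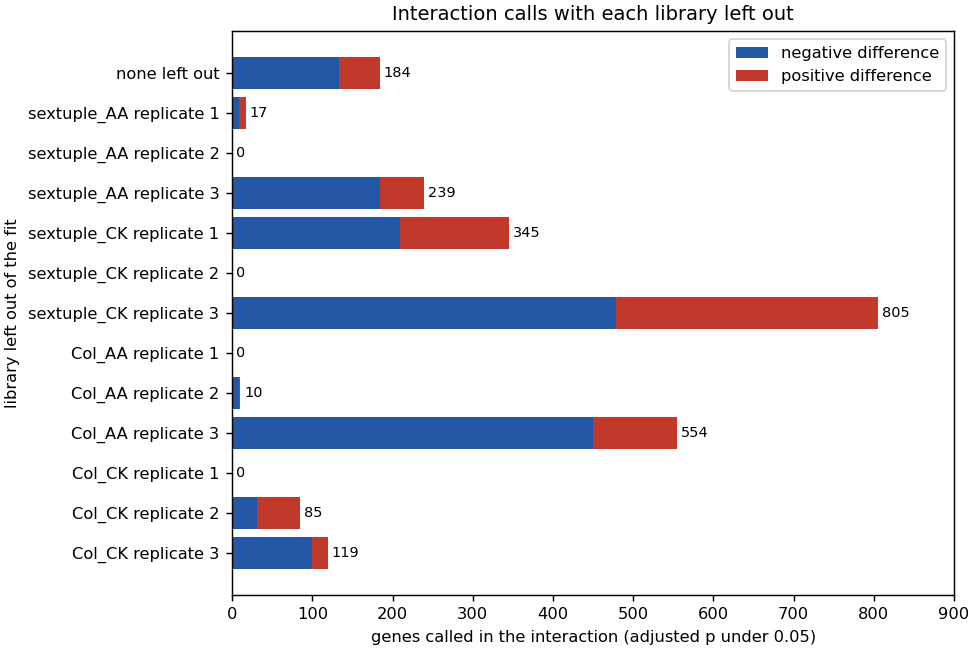
Number of genes called in the difference of responses (limma, adjusted p under 0.05) with no library or each single library left out, split into negative (blue) and positive (red) differences. The count of 184 goes to 0 without any of 4 libraries and reaches 805 without sextuple CK replicate 3.

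The negative genes mostly fell in sextuple while they rose or stayed within the threshold in Col. Under AA, 98 of the 133 were lower and 10 higher in sextuple (median response -1.25), and 12 were lower and 49 higher in Col (median 0.24). The positive genes mostly rose in sextuple, with 28 of 31 higher and 0 lower in sextuple (median 1.19) and 3 higher and 3 lower in Col (median 0.10). Of all genes tested, 14.3% were lower and 14.0% higher in sextuple, and 7.51% lower and 10.7% higher in Col. The smaller counts lie near or under those shares. The genotypes were further apart under CK than under AA for 136 of the 164. By the test between genotypes, 128 of the 164 were called under CK and 4 under AA, where the shares over all genes tested were 5.38% and 0.0924%. The contrast that defined the genes contains both arms, so these counts describe where the difference sat and test nothing. Over all genes, 17 were lower in sextuple and higher in Col by both response tests, and 3 were the reverse, and 17 of these 20 were called in the difference.

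Hypoxia genes had the largest list median. All 18 members tested had a negative difference, with a median of -1.91 against -0.05 for all genes, and 10 were called, against 0.585% of all genes called negative. Their median response was -1.26 in sextuple, with 12 lower and 1 higher, and 1.28 in Col, with 10 higher and 0 lower (backgrounds 14.3% lower and 14.0% higher in sextuple, 7.51% lower and 10.7% higher in Col). SUS4 (sucrose synthase, which feeds glycolysis) was at 184, 281 and 305 normalized reads in sextuple AA and 1377, 1533 and 665 in sextuple CK. In Col it was at 1414, 3549 and 518 under AA and 237, 207 and 308 under CK. SUS4 libraries thus did not overlap between treatments in either genotype, and moved in opposite directions, for a difference of -4.62 (SE 0.72, limma adjusted p = 0.0316).

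The 3 genes whose promoters are printed above act in fermentation and in the export of lactic acid. ADH1, which turns acetaldehyde into ethanol, was at 3777, 6355 and 5163 in sextuple AA, 16246, 23101 and 16155 in sextuple CK, 13860, 36613 and 6344 in Col AA, and 5277, 4097 and 7345 in Col CK. Its difference was -3.32 (SE 0.65, limma adjusted p = 0.0389), with sextuple CK above all of sextuple AA. In Col, ADH1 was called higher under AA (1.45, limma adjusted p = 0.0358), although its Col libraries overlapped between treatments. AT4G33070, pyruvate decarboxylase PDC1, was at 2950, 4886 and 4520 in sextuple AA, 16501, 23115 and 12553 in sextuple CK, 10111, 21937 and 5372 in Col AA, and 6322, 5040 and 9005 in Col CK. The difference was -2.75 (SE 0.57, limma adjusted p = 0.0463), and again only the sextuple libraries separated by treatment. NIP2;1 was at 180, 295 and 313 in sextuple AA, 1650, 2092 and 791 in sextuple CK, 929, 1813 and 337 in Col AA, and 217, 191 and 457 in Col CK (difference -4.08, SE 0.74, limma adjusted p = 0.0316). The Col response of NIP2;1 was called higher (1.63, limma adjusted p = 0.0374), and that of AT4G33070 was not called (0.685, limma adjusted p = 0.264). Under AA, NIP2;1 and AT4G33070 were lower in sextuple than in Col without overlap, though neither passed the test between genotypes (limma adjusted p = 0.36 and 0.34).

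The regulators LBD41 and AT3G10040 had larger responses in Col than in sextuple. LBD41, a LOB domain transcription factor, was at 6508, 5071 and 7380 in sextuple AA, 7975, 10758 and 9625 in sextuple CK, 10367, 12919 and 6875 in Col AA, and 3054, 2576 and 3870 in Col CK. It rose in Col (1.64, limma adjusted p = 0.000169). Its sextuple response of -0.59 did not pass the test (limma adjusted p = 0.0608), although the sextuple libraries did not overlap between treatments. AT3G10040 (HRA1), which restrains group VII factors, was at 1821, 1878 and 2885 in sextuple AA, 1521, 1756 and 923 in sextuple CK, 4539, 5835 and 3100 in Col AA, and 271, 360 and 865 in Col CK. Here Col rose by 3.31 (limma adjusted p = 2.95e-05) and the sextuple response was 0.67 (limma adjusted p = 0.189), so the difference of -2.64 came with no fall in sextuple. The cysteine oxidases, which sense oxygen, split likewise. AT5G15120 (PCO1) rose in Col (1.12, limma adjusted p = 7.48e-05) with a sextuple response of -0.13, for a difference of -1.25 (SE 0.20, limma adjusted p = 0.0316). AT5G39890 (PCO2) rose in Col (1.04) and fell in sextuple (-0.72, limma adjusted p = 0.0375), for a difference of -1.76. ACO1, an ethylene-forming enzyme, and AT4G10270, a wound-responsive family protein, rose in Col by 2.15 and 2.26 with sextuple responses of 0.24 and 0.15, and differed by -1.92 and -2.11 (limma adjusted p = 0.036 and 0.0316).

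The 8 members that were not called had adjusted p-values from 0.0597 to 0.0947. Among them ERF73 (HRE1) was the 1 member that rose in sextuple, at 904, 681 and 755 normalized reads in sextuple AA and 302, 331 and 440 in sextuple CK. It rose more in Col, at 1594, 1812 and 1151 under AA and 300, 239 and 122 under CK, for a difference of -1.72 (limma adjusted p = 0.0606). ERF71 (HRE2), a related factor, fell in sextuple (-2.20, limma adjusted p = 0.000164), with a Col response of -0.52 (limma adjusted p = 0.299). The others were SUS1 (sucrose synthase, difference -1.83), HB1 (a haemoglobin that scavenges nitric oxide, -1.69), AlaAT1 (alanine aminotransferase, -1.13), ETR2 (an ethylene receptor, -1.13), SRO5 (-1.90) and the uncharacterised AT5G10040 (-4.47, SE 1.22).

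Replicate spread within Col AA was wide for these genes. Col AA replicate 2 was the highest and replicate 3 the lowest of its group for 18 of 18 members, whereas replicate 2 was highest for 34.1% of all nuclear genes. Sextuple CK was above Col CK without overlap for 17 of 18 members, and sextuple AA below sextuple CK for 13. Col AA was above Col CK for 8, and sextuple AA below Col AA for 10. How often all genes separate in these ways was not counted, so these counts describe the members only. The summed level of the list was 53186 to 63169 in sextuple AA, 113130 to 149350 in sextuple CK, 63034 to 162090 in Col AA and 49025 to 69805 in Col CK. With single libraries left out, the number called was 0 without sextuple AA replicate 2, sextuple CK replicate 2, Col AA replicate 1 or Col CK replicate 1. It was 1 without sextuple AA replicate 1 or Col AA replicate 2, 3 without Col CK replicate 2, and 16 and 17 without sextuple CK replicate 3 and Col AA replicate 3. The median difference lay between -2.24 and -1.57 over those fits, and all 18 members stayed negative in each. Without Col CK replicates 1 and 3 together, which leaves 1 Col CK library, the median was -2.11.

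**Figure D3:**
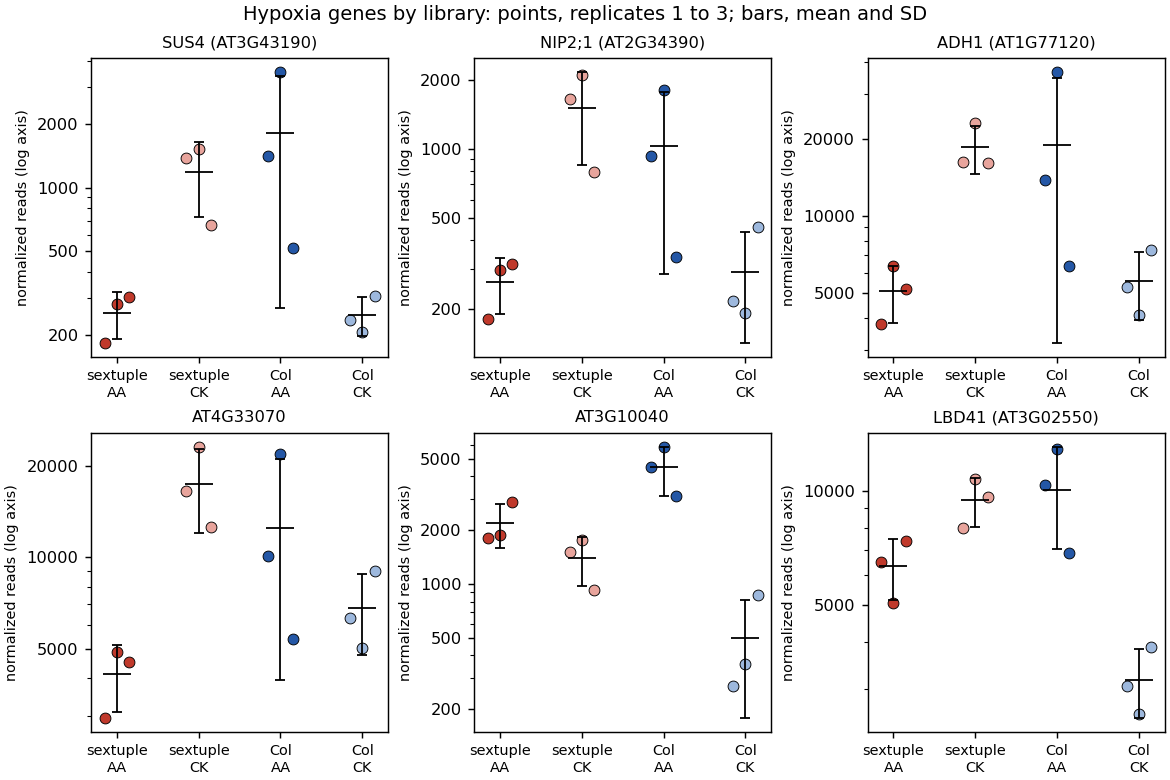
Normalized reads (log axis) of 6 hypoxia genes in each library of sextuple AA, sextuple CK, Col AA and Col CK, with the mean and SD of each group (n = 3). Without overlap of the libraries, SUS4, NIP2;1, ADH1, AT4G33070 and LBD41 are lower under AA than under CK in sextuple. SUS4, AT3G10040 and LBD41 are likewise higher under AA in Col. Col AA replicate 2 is the highest Col AA point in every panel.

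Further genes with large negative differences lay outside the hypoxia list, which does not hold every gene known to respond to low oxygen. LBD40, a LOB domain factor, rose in Col (2.70, limma adjusted p = 0.00155), at 118, 303 and 88.8 normalized reads under AA and 10.2, 26.6 and 37.3 under CK. In sextuple it was at 71.8, 115 and 131 under AA and 151, 338 and 196 under CK, for a difference of -3.77 (SE 0.71, limma adjusted p = 0.0358). FTM1, a stearoyl-ACP desaturase, was at 2992, 5961 and 4575 in sextuple AA, 6980, 10514 and 7557 in sextuple CK, 4448, 14789 and 3275 in Col AA, and 1089, 1148 and 1799 in Col CK (difference -3.11, limma adjusted p = 0.0394). Both genes rose in Col, and their sextuple responses of -1.07 and -0.92 did not pass the test although the libraries did not overlap. AT5G66985, an uncharacterised protein, followed with a Col rise of 2.50 and a sextuple response of -0.41. AT3G03270, annotated as adenine nucleotide alpha hydrolase-like, was at 3727, 3662 and 3801 in sextuple AA and 16337, 22031 and 21926 in sextuple CK, but at 6638, 13173 and 3946 in Col AA and 5688, 4961 and 6015 in Col CK. It fell in sextuple (-2.42, limma adjusted p = 4.46e-05), with a Col response of 0.34 (limma adjusted p = 0.483).

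A pair of genes with few reads in Col CK had large negative differences. SRO4 was at 21.7, 47.8 and 69.9 in sextuple AA, 73.6, 71.1 and 15.1 in sextuple CK, 45.9, 265 and 18.3 in Col AA, and 0, 1.26 and 0 in Col CK (difference -5.61, SE 1.21, limma adjusted p = 0.0495). EXPA17, an expansin that loosens cell walls, was at 117, 53.6 and 74.9 in sextuple AA, 8.09, 11.5 and 26.4 in sextuple CK, 148, 163 and 112 in Col AA, and 0, 1.26 and 0 in Col CK (difference -4.31, limma adjusted p = 0.0316). Each had 1 read in Col CK in all, so that the ratio of Col AA to Col CK was 198 for SRO4 (95% interval 35.4 to 7840) and 251 for EXPA17 (44.9 to 9930). These intervals cover counting error only.

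Jasmonate and defence genes were among the negative differences. JRG21, a jasmonate-regulated dioxygenase, was at 14.2, 12.1 and 21.6 normalized reads in sextuple AA, 535, 470 and 425 in sextuple CK, 95.6, 83.4 and 49.3 in Col AA, and 222, 262 and 328 in Col CK. It fell in both genotypes (-4.85 and -1.85), and the difference of -3.00 (SE 0.41, limma adjusted p = 0.0316) came with a lower level in sextuple than in Col under AA (-2.17, limma adjusted p = 0.0109). CYP94C1, which oxidises jasmonoyl-isoleucine, was at 225, 152 and 280 in sextuple AA, 815, 934 and 800 in sextuple CK, 486, 452 and 246 in Col AA, and 368, 406 and 447 in Col CK (difference -1.89, SE 0.36). Among the 27 jasmonate synthesis genes and JAZ repressors tested, 20 were lower and 3 higher in sextuple (14.3% and 14.0% of all genes) and 13 lower and 2 higher in Col (7.51% and 10.7%), but CYP94C1 alone was called in the difference (list median -0.55). CBP60G, a calmodulin-binding activator of salicylate synthesis, was at 312, 272 and 486 in sextuple AA, 1186, 1212 and 1015 in sextuple CK, 540, 602 and 353 in Col AA, and 396, 403 and 477 in Col CK (difference -1.91, SE 0.32, limma adjusted p = 0.0316). It was the 1 called of 18 salicylate and defence genes, whose median difference was -0.93. For both lists, the share of all genes called negative was 0.585%. AT3G02840, an ARM repeat protein, fell in sextuple (-2.83) with a Col response of 0.17 (difference -3.00, limma adjusted p = 0.0463).

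Of the stress transcription factors and calcium-binding proteins listed here, WRKY53 and CML38 were called, where 0.585% of all genes were called negative. The list medians were negative. WRKY53, a factor of senescence and defence, was at 145, 184 and 187 in sextuple AA, 398, 381 and 450 in sextuple CK, 258, 285 and 162 in Col AA, and 206, 181 and 144 in Col CK. It fell in sextuple (-1.25, limma adjusted p = 0.000621), with a Col response of 0.38 (limma adjusted p = 0.255), and was the 1 called of 66 WRKY factors (difference -1.63, list median -0.49). The 9 ZAT zinc finger factors, stress-induced repressors, all fell in sextuple (14.3% of all genes) and 4 fell in Col (7.51%). None was called in the difference (list median -1.28). CML38, a calmodulin-like protein known from hypoxia, was at 482, 447 and 675 in sextuple AA, 1518, 1901 and 1707 in sextuple CK, 1098, 2094 and 615 in Col AA, and 931, 545 and 748 in Col CK (difference -2.32, SE 0.47, limma adjusted p = 0.0413). It was the 1 called of 20 calmodulin-like genes (list median -0.53). None of the 22 calcium exchangers and pumps was called (list median -0.46).

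Genes of mitochondria had small median differences beyond the stimulon. Of 22 genes of the mitochondrial dysfunction stimulon, 19 fell in sextuple (14.3% of all genes) and 12 in Col (7.51%), with 1 higher in Col (10.7%), and the list median difference was -0.48. DIC2, a dicarboxylate carrier of the inner membrane and the 1 member called, was at 475, 402 and 607 in sextuple AA, 838, 827 and 1151 in sextuple CK, 726, 814 and 479 in Col AA, and 373, 319 and 455 in Col CK. It moved in opposite directions, by -0.92 in sextuple and 0.79 in Col (difference -1.72, SE 0.31, limma adjusted p = 0.0316). Over all genes, 0.585% were called negative. The medians were 0.0019 for 75 OXPHOS subunits, 0.07 for 58 mitoribosome members, 0.012 for 14 mitochondrial chaperones, -0.12 for 15 import components and -0.10 for 12 mitochondrial proteases, and no member of these lists was called. The OXPHOS, mitoribosome, chaperone, import and protease lists came from the study, which chose them on these samples.

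RBCS1B had the largest positive difference of the called nuclear genes other than rRNA, and was the 1 called member of the photosynthesis lists. RBCS1B codes for a small subunit of Rubisco, and was at 2602, 2519 and 2016 in sextuple AA, 869, 521 and 813 in sextuple CK, 1913, 1550 and 2362 in Col AA, and 2750, 2228 and 2351 in Col CK. It rose in sextuple (1.72, limma adjusted p = 2.07e-05), with a Col response of -0.35 (limma adjusted p = 0.246), for a difference of 2.07 (SE 0.28, limma adjusted p = 0.0316). As RBCS1B belongs to a family of near-identical genes, its reads may be split among copies. GLK2, a factor that drives photosynthesis genes, was at 804, 941 and 676 in sextuple AA, 412, 359 and 483 in sextuple CK, 393, 375 and 579 in Col AA, and 614, 487 and 698 in Col CK (difference 1.38, SE 0.28, limma adjusted p = 0.0414). BBX14, a B-box zinc finger protein, was at 5357, 5897 and 3743 in sextuple AA, 2840, 2290 and 2580 in sextuple CK, 3351, 3064 and 4872 in Col AA, and 4820, 4839 and 4285 in Col CK (difference 1.27, SE 0.27, limma adjusted p = 0.0483). Both rose in sextuple, and their Col libraries overlapped between treatments.

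Lists of the chloroplast had positive median differences, with 1 call. The 16 Calvin cycle enzymes had a median difference of 0.76, with RBCS1B called, and 15 of 16 above 0. The 30 photosystem subunits had a median of 0.53, with 0 called. Of these, 4 were higher in sextuple and 5 lower in Col, where 14.0% and 7.51% of all genes were, so the sextuple count is near the share of all genes. The 14 chloroplast chaperones, chosen by the study on these samples, had a median of 0.44, with 0 called and 4 higher in sextuple (14.0% of all genes). The 20 light-harvesting proteins had a median of 0.14, with 4 lower in each genotype (14.3% of all genes in sextuple and 7.51% in Col). The emb1417 gene, a pentatricopeptide protein of a family that processes organelle RNA, was at 474, 531 and 433 in sextuple AA, 225, 218 and 201 in sextuple CK, 362, 335 and 434 in Col AA, and 353, 352 and 477 in Col CK (difference 1.21, SE 0.23). It and 1 other were called of 262 pentatricopeptide genes, where 0.224% of all genes were called positive, and the list median was -0.06.

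The other positive genes had no shared list. FUM2, a cytosolic fumarase, rose in sextuple and fell in Col, at 138, 124 and 151 in sextuple AA, 90.6, 64.4 and 109 in sextuple CK, 113, 94.0 and 112 in Col AA, and 246, 243 and 159 in Col CK (difference 1.65, SE 0.35, limma adjusted p = 0.0464). AT3G59490, an uncharacterised protein, did likewise, with responses of 0.75 and -0.92. AT3G28040, a leucine-rich receptor kinase, rose in both, at 1034, 1094 and 952 in sextuple AA, 240, 150 and 194 in sextuple CK, 881, 860 and 1143 in Col AA, and 407, 501 and 584 in Col CK (difference 1.47, SE 0.26, limma adjusted p = 0.0316). BXL2, a beta-xylosidase of the cell wall, also rose in both, by 2.09 in sextuple and 0.86 in Col. FP3, a farnesylated metal-binding protein, was at 474, 675 and 542 in sextuple AA, 180, 233 and 219 in sextuple CK, 351, 389 and 420 in Col AA, and 310, 348 and 393 in Col CK (difference 1.26, SE 0.24). ZFP8, a zinc finger factor of trichomes, AGP17, an arabinogalactan protein, AT5G20110, of the dynein light chain family, and AT3G05900, a neurofilament-like protein, rose in sextuple by 1.43, 1.53, 1.58 and 1.73 and had Col responses of -0.04, 0.24, 0.22 and 0.10. UGT88A1, a glycosyltransferase, fell in Col (-0.64, limma adjusted p = 0.00295) with a sextuple response of 0.34 (limma adjusted p = 0.0595), for a difference of 0.98. For 12 of the 12 nuclear genes with the largest positive differences, sextuple CK lay below Col CK without overlap, and none was called between genotypes under AA. These genes were picked on a contrast that contains both CK groups, so this order describes them and tests nothing.

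**Figure D4:**
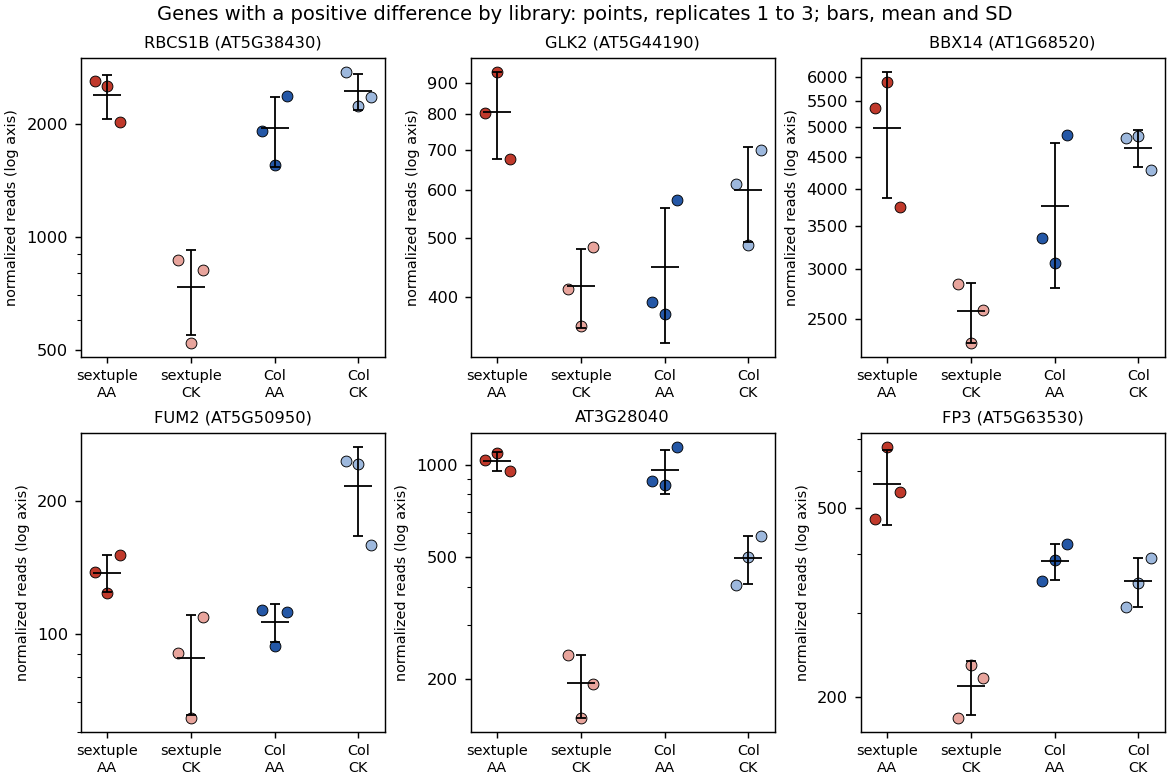
Normalized reads (log axis) of 6 genes with a positive difference of responses in each library of sextuple AA, sextuple CK, Col AA and Col CK, with the mean and SD of each group (n = 3). In each panel the sextuple AA libraries lie above the sextuple CK libraries, and the sextuple CK libraries lie below those of Col CK. The genes were picked on a contrast that contains these groups, so their order is a description.

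Growth and cell wall genes responded strongly in both genotypes, and EXPA17, EXPA7 and XTR6 were called in the difference. Of 22 expansins, 17 rose in sextuple (14.0% of all genes) and 16 in Col (10.7%), and 2 were called in the difference, EXPA17 and EXPA7 (0.585% of all genes negative). EXPA7, which is known from root hairs, was at 379, 315 and 409 in sextuple AA, 80.9, 79.8 and 95.6 in sextuple CK, 411, 377 and 301 in Col AA, and 22.2, 30.3 and 32.3 in Col CK. The genotypes differed by 0.022 under AA (limma adjusted p = 0.982) and by 1.57 under CK (limma adjusted p = 0.00402), for a difference of -1.55. CYP702A5, a cytochrome P450, was at 307, 250 and 340 in sextuple AA, 26.7, 24.0 and 30.2 in sextuple CK, 501, 686 and 541 in Col AA, and 11.9, 13.9 and 12.4 in Col CK. Under AA its sextuple libraries lay below those of Col (-0.94, limma adjusted p = 0.211), and under CK above them. It rose by 3.42 in sextuple and 5.38 in Col (difference -1.96, SE 0.32, limma adjusted p = 0.0316). Of 192 cytochromes P450, 4 were called, all negative, where 0.585% of all genes were called negative. AT5G50760 (SAUR55), a small auxin-upregulated gene, fell in both (-2.41 and -0.97, difference -1.44), and was the 1 called of 105 auxin response genes. XTR6, a xyloglucan endotransglucosylase, fell in sextuple (-1.62), with a Col response of -0.17 (difference -1.44), the 1 called of 30. CYP79B3, which makes indole-3-acetaldoxime from tryptophan, was at 2267, 1857 and 1998 in sextuple AA, 7065, 6274 and 3963 in sextuple CK, 2917, 3677 and 2111 in Col AA, and 2177, 2151 and 2754 in Col CK (difference -1.73, SE 0.31), the 1 called of 30 glucosinolate genes.

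Many root markers responded to AA, while the summed levels of shoot markers overlapped between all groups. Of 19 root markers, 11 rose in sextuple (14.0% of all genes) and 12 in Col (10.7%), and 1 fell in each genotype. Their median difference was -0.77 and 2 were called, both negative (0.585% of all genes). Their summed level was 5843 to 6020 normalized reads in sextuple AA, 5598 to 6145 in sextuple CK, 7224 to 7588 in Col AA and 4379 to 5609 in Col CK, where 1 or 2 markers were at 0. The 8 shoot markers had a median difference of 0.89 with 1 called, RBCS1B, and summed to 315150 to 570670 in sextuple AA, 311300 to 665320 in sextuple CK, 444510 to 476550 in Col AA and 437610 to 800150 in Col CK. Both root and shoot markers were present in all groups, which the labelled tissue calls for. The share of root tissue and the level of a gene per cell cannot be told apart in these samples, and the part of organ share in the differences was not tested. The 8 seed maturation genes with values, of which 7 were tested, summed to 33.2 to 76.5 in sextuple AA and 96.1 to 191 in sextuple CK. In Col they summed to 67.0 to 129 under AA and 164 to 493 under CK.

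Several lists that responded strongly had median differences much smaller than their median responses. Of 17 small heat shock proteins, chaperones of heat stress, 15 were lower and 1 higher in each genotype. Of all genes, 14.3% were lower and 14.0% higher in sextuple, and 7.51% lower and 10.7% higher in Col. The median responses of the small heat shock proteins were -5.02 in sextuple and -4.54 in Col. Their median difference was -0.52, against -0.05 for all genes, with 15 of 17 members below 0 and 0 called. Of 18 energy starvation genes, 13 were lower in sextuple and 15 in Col (14.3% and 7.51% of all genes), with median responses of -1.55 and -1.46 and a median difference of -0.06. Of 11 flavonoid synthesis genes, 7 were higher in sextuple and 6 in Col (14.0% and 10.7% of all genes), with median responses of 1.57 and 1.58 and a median difference of -0.021 that changed sign with library-total scaling. No member was called of 125 cytosolic ribosomal proteins (median 0.10) or 35 proteasome subunits (median 0.0098). Of 50 lists, 33 had no called member, 12 had 1 and 5 had more. Only 27 of the 164 nuclear calls fell in any list.

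**Figure D5:**
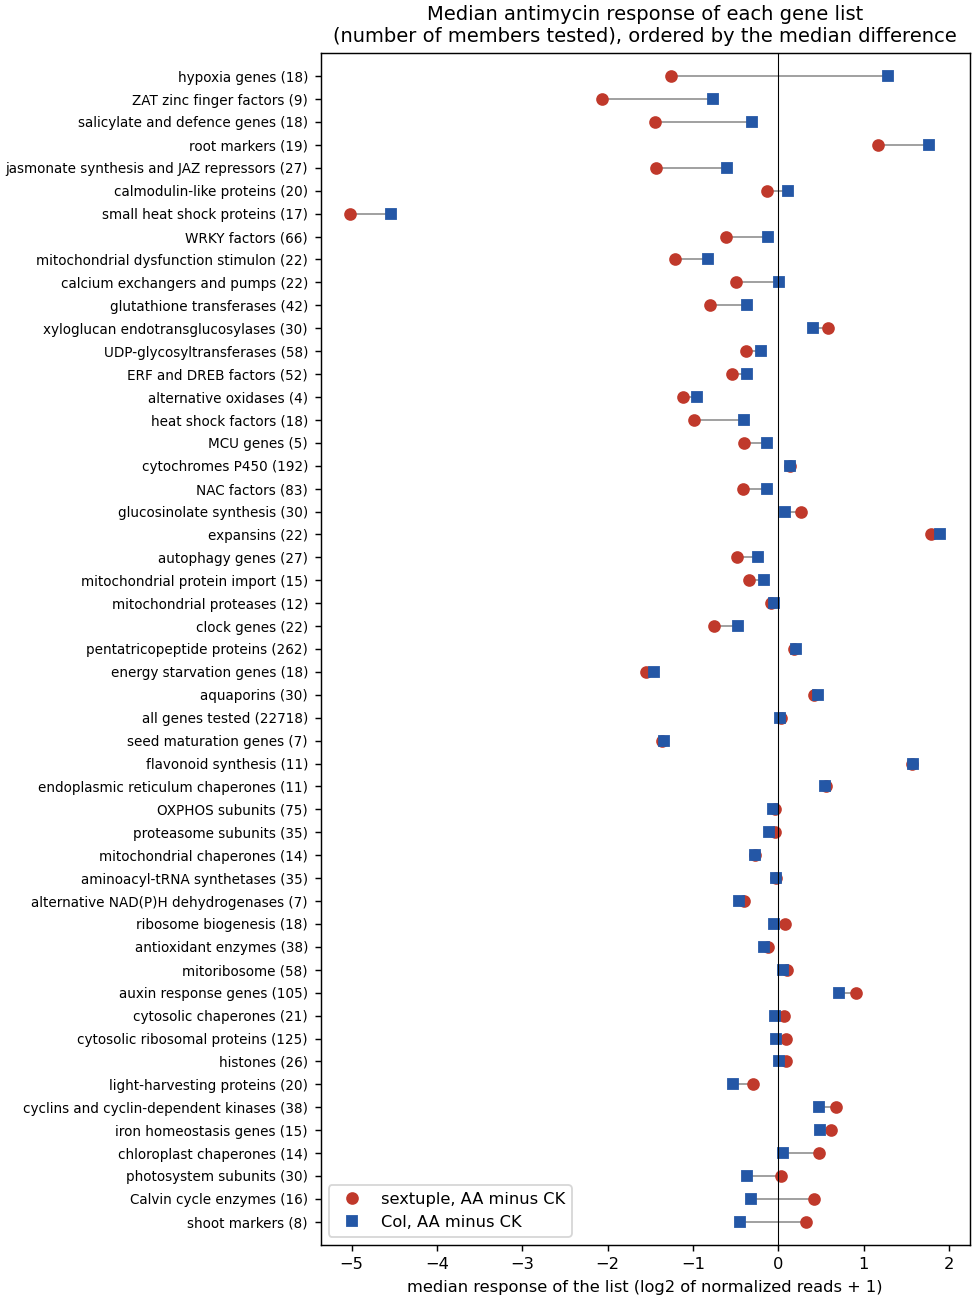
Median response to AA (log2 of normalized reads + 1) of each gene list in sextuple (red circles) and Col (blue squares), with the number of members tested, ordered by the median difference. The hypoxia list has its 2 points on opposite sides of 0, at -1.26 in sextuple and 1.28 in Col.

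Between genotypes within one treatment, the arms differed in number. Under CK, 1222 genes were called between sextuple and Col, 643 higher and 579 lower (2.83% and 2.55% of the genes tested). Under AA there were 21, with 8 higher and 13 lower (0.0352% and 0.0572%). The CK count was 285 without sextuple CK replicate 2, 527 without Col CK replicate 2, 785 without Col CK replicate 1 and 2828 without sextuple CK replicate 1. The AA count was 4 without Col AA replicate 1, 5 without Col AA replicate 2, 8 without sextuple AA replicate 2 or 3, 37 without Col AA replicate 3 or sextuple CK replicate 1 and 53 without sextuple CK replicate 3. For hypoxia genes, 14 of 18 were higher in sextuple under CK and 0 lower, while under AA 0 were called. Without Col CK replicate 3, the library of highest rRNA share, the CK count was 836. The part of rRNA share in these counts was not tested.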

How the data were processed

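RNA sequencing libraries were made by the authors from whole seedlings with an NEBNext Ultra RNA kit. Per the labels, reads were mapped with Bowtie 0.12.2 to TAIR10. The counting tool and strand setting are not given in the sources used here, so overlapping genes and close paralogs are uncertain. The study's methods name Cufflinks and RPKM, which the tables do not hold. The authors deposited a signal per gene and library, equal to whole reads divided by a size factor. Their fold change and p-value columns, and the tables of other lines (except for the line order and a fit over 30 libraries), were not used.

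Each column was divided by its value for 1 read, which gave whole reads (within 0.01) for 279894 of 279894 values, 100%. The sextuple and Col tables held 23415 and 23234 genes and shared 22806, of which 22591 matched TAIR10.1 (RefSeq), used for names and upstream sequence. TAIR10.1 is not stated to be the authors' build. Recovered reads were divided by 1 set of median-of-ratios factors over the 12 libraries. Total depth was 11.8 to 37.9 M reads.

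limma 3.58.1 in R 4.3.3 was fitted to log2(normalized reads + 1) with 4 group means and a mean-variance trend, for 22718 genes with a mean of at least 1. Differences are on that scale, which understates changes of low genes. Tests were two-sided, with Benjamini-Hochberg adjustment over all genes. The difference of responses was called at an adjusted p under 0.05, and other contrasts also needed a fold change over 1.5. The study's methods call the 3 libraries of a group biological replicates. How they were separated (plates, wells or cultures) is not given in the sources used here. On the recovered reads, edgeR 4.0.16 called 249 genes and DESeq2 1.42.0 called 1210 in the difference. The functions were tested on simulated data.

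Members and lists were chosen with earlier results of these data known. Gene lists came from locus IDs, symbols and descriptions, and 79 false matches were removed from the annotation alone. Lists were described by counts and medians and not tested. Named genes were the MCU genes, AOX1A and AOX1D, the 12 largest positive and 12 largest negative differences among called nuclear protein-coding genes with a mean of at least 50 reads, and the called member with the smallest p-value of each list. The hypoxia members were all named beside that rule. Organelle and rRNA genes were counted and not named. Alternatives were other pseudocounts, filters, factors, thresholds and tests, thinning, library weights, a replicate block, a fit over 30 libraries and each library left out.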

Additional observations from a re-analysis of the deposited data

Results flagged for a closer look

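Responses to AA that differed between sextuple and Col by the test of the difference itself are collected here, with the difference on the log2 scale for each named gene. The test called 184 genes, 10 of them hypoxia genes. Each value is the response of sextuple minus that of Col, and the same libraries of Col CK enter every one, which had the highest rRNA shares. The part of those libraries was not tested.

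Negative values belonged to hypoxia genes and to other genes. Of the hypoxia genes, SUS4 had -4.62, NIP2;1 -4.08, ADH1 -3.32, AT4G33070 -2.75, AT3G10040 -2.64, LBD41 -2.23, AT4G10270 -2.11, ACO1 -1.92, AT5G39890 -1.76 and AT5G15120 -1.25. SRO4 had -5.61, EXPA17 -4.31, LBD40 -3.77, FTM1 -3.11, AT3G02840 -3.00, JRG21 -3.00, AT5G66985 -2.91 and AT3G03270 -2.76. Members of other lists were CML38 at -2.32, CYP702A5 at -1.96, CBP60G at -1.91, CYP94C1 at -1.89, CYP79B3 at -1.73, DIC2 at -1.72, WRKY53 at -1.63, EXPA7 at -1.55, XTR6 at -1.44 and AT5G50760 at -1.44.

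Positive values did not exceed 2.07. RBCS1B had 2.07, AT3G59490 1.67, FUM2 1.65, AT3G05900 1.63, ZFP8 1.47, AT3G28040 1.47, GLK2 1.38, AT5G20110 1.36, AGP17 1.29, BBX14 1.27, FP3 1.26, BXL2 1.23, emb1417 1.21 and UGT88A1 0.98. All of these 42 genes kept their sign under all 31 alternatives run for them, and 590 of 1302 such values no longer passed the threshold.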

How the results depend on the processing

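The count of 184 differences was 249 by edgeR (177 of the same genes), 1210 by DESeq2 (all 184), 0 without the mean-variance trend (3362 at an unadjusted p under 0.05), 113 without organelle and rRNA genes, and 0 and 719 at adjusted p under 0.01 and 0.1. The hypoxia count of 10 was 18 by DESeq2, 0 without the trend, and 0 and 18 at those thresholds. Other pseudocounts, filters, factors, thinning and a fit over 30 libraries kept the main count within 1.5 times (153 to 249). With library weights, added after seeing the data, 3993 differences and 18 hypoxia genes were called, their median difference was -2.28, and genotype calls were 851 under AA and 3389 under CK. Without Col CK replicates 1 and 3, also added, counts were 0 and 0 for differences and hypoxia genes, 2155 for the Col response and 68 for genotype under CK.

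With 1 library left out, differences numbered 0 to 805, hypoxia calls 0 to 17, the sextuple response 5304 to 6915, the Col response 3129 to 4526, and genotype calls 4 to 53 under AA and 285 to 2828 under CK. Without all libraries of replicate number 1, 2 or 3, differences numbered 0, 1 and 2894, and hypoxia calls 0, 0 and 18.

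Libraries of the same replicate number did not deviate together throughout: over 18 pairs, correlations of deviations ran from -0.366 to 0.374, with 3 over 0.1. Pairs of other numbers ran from -0.360 to 0.482. Deviations of 3 libraries from their own group mean are not independent, so whether libraries share a batch was not tested. A replicate block within each genotype gave 0 differences (2712 at an unadjusted p under 0.05), 0 hypoxia calls, 2 genotype calls under AA and 24 under CK, and a block over all 12 libraries gave 0 (3185), 0 and, under CK, 749.

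Signs changed for MCU1 (AT1G09575), not called, at 0.258 with library weights 0.0705 and 0.0883 without replicate 3 of sextuple AA or sextuple CK and 0.363 without all replicates 3 (range over left-out libraries -0.656 to 0.363), and for MCU4 (AT4G36820), not called, at -1.60 by DESeq2 and -2.00 by edgeR. Low reads limit MCU4, SRO4 and EXPA17, and shallow Col CK libraries limit all differences.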

Other observations

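Phenylpropanoid genes, chosen after their values had been seen, lay on the negative side. Of 27 genes from the shikimate and phenylalanine steps to monolignols, 22 had a negative difference (median -0.72), and 7 were called, all negative, where 0.585% of all genes were. As the genes were picked for their values, this share is a description. These were PAL1 (phenylalanine ammonia-lyase, -1.12), C4H (cinnamate hydroxylase, -1.82), the coumarate ligases 4CL1 (-1.06) and 4CL5 (-1.56), CCR1 (cinnamoyl-CoA reductase, -0.80), ADT4 (arogenate dehydratase, -1.29) and AT1G22410 (-0.97). Under AA, 12 of the 27 were lower and 2 higher in sextuple (14.3% and 14.0% of all genes), and 1 was lower and 6 higher in Col (7.51% and 10.7%). Under CK, 12 were higher in sextuple than in Col and 0 lower (2.83% and 2.55%).

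The 164 nuclear genes called in the difference were also ranked over the 5 genotypes of the series, by the group mean of each. Under CK, Col was at either end of the order for 139 genes (84.8%), against 50.5% of all 22252 nuclear genes in the 5 tables, and sextuple for 78 (47.6%), against 40.5%. Under AA, sextuple was at either end for 104 (63.4%), against 36.8%, and Col for 59 (36.0%), against 43.5%. The genes were chosen from 2 of these genotypes, so the shares are a description.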
